A study of Mus musculus with 6 samples.

Results

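Translation factors are the soluble proteins that bring the ribosome onto mRNA, start it at the right codon and move it along the message. In uterine horns of ovariectomized mice, RNA of 51 initiation and elongation factor genes, out of 18193 genes measured, was compared between 3 arrays after P4, the usual abbreviation of progesterone, and 3 arrays after oil, a usual vehicle for steroids. A gene was taken as a member when the platform annotation gave its probe set a single symbol beginning with Eif1 to Eif6 or with Eef1 or Eef2. The kinases of eIF2α (Eif2ak), the eIF4E-binding proteins (Eif4ebp) and Eef1e1 were kept out of the members and were counted among the related genes further on. Both groups were female, 8 weeks old, ovariectomized and of mixed background, and both carried GATA2 f/f, a notation used for a floxed allele on both chromosomes. No Cre driver, dose or time after treatment is named in the labels. Each value is the deposited intensity of 1 probe set per gene, in arbitrary units, so levels are compared between arrays for the same gene and never between genes. It is not stated whether the 3 arrays of a group came from different mice. The p-values therefore describe the scatter among these 6 arrays, part of which may be technical.

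Initiation begins when eIF2, loaded with GTP by its exchange factor eIF2B, carries the initiator tRNA to the small ribosomal subunit, which is also bound by eIF1, eIF1A and the many-subunit eIF3. The mRNA is brought in by eIF4F, made of the cap-binding protein eIF4E, the scaffold eIF4G and the RNA helicase eIF4A, whose unwinding is stimulated by eIF4B or eIF4H. eIF5 and eIF5B then trigger GTP hydrolysis and joining of the large subunit. During elongation eEF1A delivers aminoacyl-tRNA, eEF1B recharges eEF1A with GTP, and eEF2 moves the ribosome by a codon. With the ovaries removed little steroid hormone is made, and progesterone acts on the uterus through the progesterone receptor encoded by Pgr.

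After P4, 9 of the 51 factor genes rose and 3 fell. The 9 that rose were Eif1a, Eif2s2, Eif2b3, Eif2b5, Eif3a, Eif3b, Eif3d, Eif4e and Eif4a1, and the 3 that fell were Eif2a, Eif3f and Eif4b. Increases ran from 0.32 to 0.71 log2, the largest being 1.64-fold, and decreases from -0.28 to -0.41 log2. All 12 belong to the 40 initiation factors, which had a median log2 difference of 0.16. None of the 5 elongation factors (Eef1a1, Eef1a2, Eef1b2, Eef1d, Eef2) passed the limma test at an adjusted p of 0.05. An unadjusted p under 0.05 was found for 0 of them. Among all genes 13.0% passed and 26.6% had such an unadjusted p, so 0 of 5 passing is near the general share. The 5 enzymes that modify elongation factors and Eif1ad, a gene named for an eIF1A-like domain, did not pass the test either.

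The test was limma on log2(intensity + 16) over all genes, with Benjamini-Hochberg adjustment and a threshold of 0.05. The factors' share of calls was 23.5%, against 13.0% of all genes. For higher calls the share was 17.6% against 6.08%, and for lower calls 5.88% against 6.94%. The factors' probe sets are bright, with a median at the 88.0th percentile of all genes, and bright genes passed the test more often. Among the 2176 genes at or above the median level of the factors, 23.1% passed, 12.2% as higher and 10.9% as lower. These genes are brighter than the factors as a set, since 25 of the 51 factors lie below that level. An unadjusted p under 0.05 was found for 26 factors, or 51.0%, against 26.6% of all genes. The 3 P4 arrays lay above all oil arrays for 19 factors and below them for 10, together 56.9% of the factors. Over all genes these groups did not overlap for 31.8%, with P4 above for 14.3% and below for 17.5%. The median log2 difference of the factors was 0.08 and that of all genes -0.01.

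Oil and P4 arrays share the replicate numbers 1 to 3, and a fit with that number as a block moved the counts by more than 1.5 times. It called 14 factors higher and 5 lower, against 20.9% of all genes, 9.29% as higher and 11.6% as lower. All 12 calls were kept, and Eif1ax, Eif2b1, Eif5a, Eif5a2 and Eif6 were added as higher and Eif3h and Eif4enif1 as lower. The choice of scale also moved the split. Spiked-in hybridisation controls were dimmer by 0.13 log2 after P4, with p = 0.1 by a two-sided exact permutation test, the least that groups of 3 can reach. Scaling every array to these controls raised the median of all genes by 0.13 and gave 18 factors higher and 1 lower, with Eif4b the one that stayed lower. The same scaling turned the balance of all genes from 1106 higher and 1262 lower to 1927 higher and 624 lower. The differences below are on the deposited scale.

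**Figure D1:**
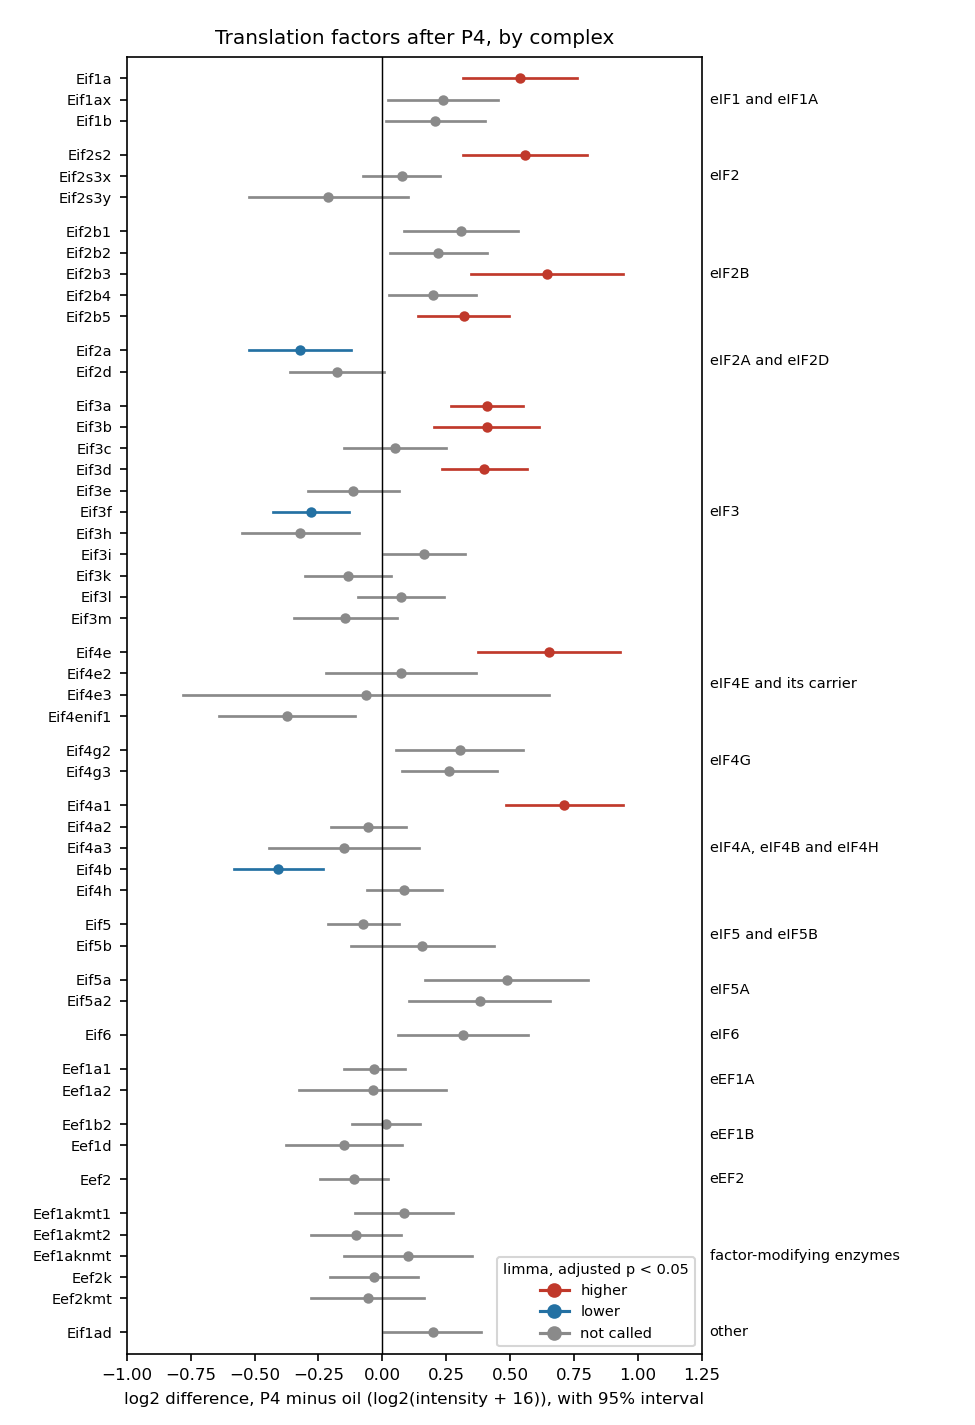
Log2 difference, P4 minus oil, of each of the 51 factor genes with its 95% interval from the limma fit, grouped by complex; the vertical line marks 0. The initiation factors spread from -0.41 (Eif4b) to 0.71 (Eif4a1), whereas the 5 elongation factors lie between -0.15 and 0.01.

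The arrays were of like brightness, with median intensities from 117 to 123, and none shared more than 18 identical values with another. Pgr fell by 0.86 ± 0.08 log2 (SE; limma adjusted p = 0.0012). Summed intensities of uterine marker lists overlapped between groups for epithelium (16260 to 22729 after oil, 12958 to 24477 after P4), stroma (39856 to 42148, 37344 to 43011) and smooth muscle (44715 to 45092, 40829 to 47884), so RNA of these 3 tissue layers was present on every array. Single markers moved within them: the stromal genes Hoxa10 (0.81 log2), Hoxa11 (0.89) and Hand2 (0.50) rose and Lum fell (-0.90), and the epithelial gene Cldn3 rose (1.21), while Krt18 (-0.62), Krt19 (-0.34) and Elf3 (-0.65) lay below oil on all P4 arrays without passing the test. The 6 endothelial markers summed to 4845 to 5627 after oil and 4568 to 4698 after P4, without overlap, and 1 of the 6 (Tek) passed the test as lower. The 4 measured adipocyte markers summed to 871 to 1648 after oil and 288 to 925 after P4, with 0 of 4 called. With the replicate block 3 of the 4 adipocyte markers, 4 of the 10 epithelial and 2 of the 6 endothelial markers passed the test as lower. Granulocyte markers ran from 591 to 6244 and from 635 to 9537, with high values on both sides. The 3′ to 5′ signal ratio of beta-actin, a gauge of RNA integrity, was 1.97 to 2.27 after oil and 1.73 to 2.60 after P4. The part of these cell mixtures in the factor results was not tested. In whole tissue, fewer cells of a type and less RNA per cell cannot be told apart.

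Among the factors that bring mRNA to the ribosome, the helicase and the cap-binding protein rose while a helicase cofactor fell. Eif4a1 encodes the main cytoplasmic form of eIF4A. Its intensities were 4628, 4533 and 5229 on oil replicates 1 to 3 and 6921, 8057 and 8680 on P4 replicates 1 to 3. The P4 arrays all stood far above the highest oil array, and Eif4a1 rose by 0.71 ± 0.10 log2 (SE; 4797 ± 377 to 7886 ± 892, SD, n = 3; limma adjusted p = 0.0043). The call was kept without any 1 of the 6 arrays (adjusted p at most 0.029), and both other probe sets of the gene had the same sign. Its close relative Eif4a2 read 6581, 6212 and 6066 after oil and 6176, 6163 and 5807 after P4. These groups overlapped, with a log2 difference of -0.06 ± 0.06 (95% interval -0.20 to 0.09). Eif4a3, which sits in the exon junction complex on spliced mRNA, read only 34.2 to 45.2 after oil and 28.6 to 42.2 after P4 on the probe set annotated to it alone.

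Eif4e, the cap-binding subunit, read 951, 825 and 941 after oil and 1554, 1199 and 1562 after P4. The lowest P4 array (replicate 2) still lay above the highest oil array. Eif4e rose by 0.65 ± 0.12 log2 (905 ± 70.2 to 1438 ± 207; limma adjusted p = 0.012), and its 3 other probe sets had the same sign. Without oil replicate 2 the adjusted p was 0.059. Eif4e2, whose product binds caps but does not support eIF4F assembly, differed by 0.07 ± 0.13 log2 with overlapping groups on its brightest probe set. Its 4 other probe sets had the same sign, from 0.04 to 0.35, so its contrast with Eif4e depends on the probe set. Eif4e3 varied too much for a small difference to be seen: the oil arrays alone spanned 542 to 1328, and the 95% interval ran from -0.78 to 0.65. Eif4enif1 encodes 4E-T, the carrier that takes eIF4E into the nucleus and to processing bodies. It read 2726, 2464 and 2158 after oil and 2120, 1681 and 1856 after P4, a log2 difference of -0.37 ± 0.12 (limma adjusted p = 0.073). With the replicate number as a block its adjusted p was 0.016, as lower.

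The cofactor Eif4b read 3912, 3689 and 3743 after oil and 2993, 2612 and 2945 after P4. The P4 arrays were all below the oil arrays by a clear gap, and Eif4b fell by 0.41 on the log2 scale, with an SE of 0.08 (3782 ± 116 to 2850 ± 207; limma adjusted p = 0.012). Its 2 other probe sets had the same sign. Without oil replicate 1 the adjusted p was 0.060. Eif4h, the alternative cofactor, differed by 0.08 ± 0.06 log2 with overlapping groups. The scaffold genes Eif4g2, whose product lacks the eIF4E-binding part, and Eif4g3 differed by 0.30 ± 0.11 and 0.26 ± 0.08 log2 (limma adjusted p = 0.11 and 0.071). Eif4g2 read 6460, 5440 and 7056 after oil and 8096, 8175 and 7042 after P4, so its groups overlapped by the lowest P4 array. For Eif4g3 the P4 arrays (1152 to 1290) all lay above the oil arrays (960 to 1068). Eif4g1 was not among the members, so the scaffold was read from Eif4g2 and Eif4g3 alone.

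**Figure D2:**
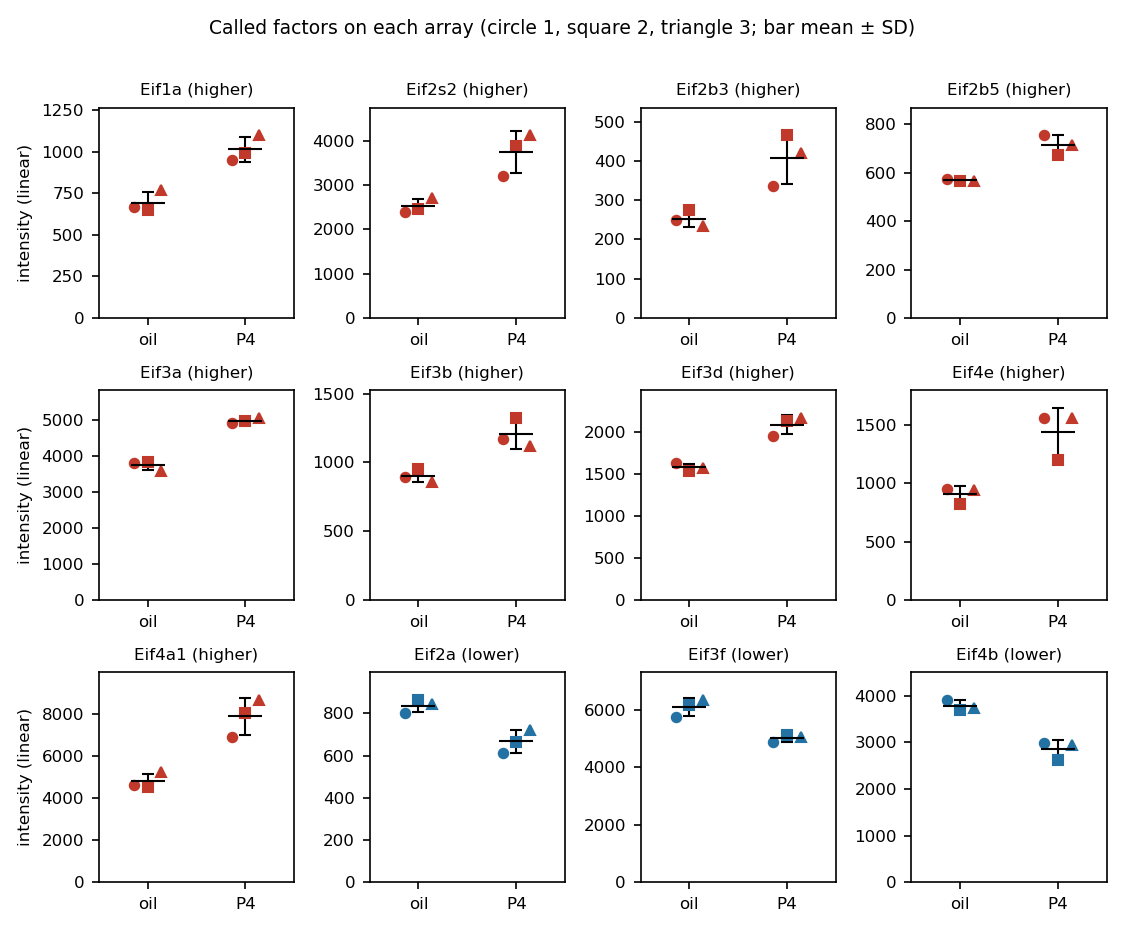
Deposited intensity of the 12 factor genes that passed the limma test, 1 panel per gene with its own axis from 0; points are arrays and bars are group means ± SD (n = 3). In every panel the oil and P4 arrays do not overlap, with the widest gap for Eif4a1 (4533 to 5229 after oil, 6921 to 8680 after P4). The genes were chosen by the test on these same arrays, which favours such gaps, and 31.8% of all genes also had no overlap.

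Promoter windows were read to see what the factors that moved have in common upstream. RefSeq windows of assembly GRCm38.p6, from 250 bases before to 50 bases after the start, were at hand for 41 of the 51 factors, 55 windows in all since 6 genes have several. The windows were searched on both strands for 4 motifs: CACGTG, the palindromic E-box that Myc and related factors bind; CCGGAAG, a core of ETS family sites; TGATGCAA, the element bound by ATF4 with C/EBP proteins; and ACANNNTGT, the core of progesterone and glucocorticoid response elements. The 200 bases before the start are shown for 2 eIF4F genes that rose, for the cofactor and the eIF3 subunit that fell, and for the elongation factor Eef2, which did not pass the test. Capitals mark CACGTG, the sole motif of the 4 found within these stretches. Eif4a1 is at chr11:69672424-69672623 (minus strand), Eif4e at chr3:138527068-138527267 (plus, 1 of 2 windows of the gene), Eif4b at chr15:102073573-102073772 (plus), Eif3f at chr7:108934215-108934414 (plus) and Eef2 at chr10:81176431-81176630 (plus).
Eif4a1: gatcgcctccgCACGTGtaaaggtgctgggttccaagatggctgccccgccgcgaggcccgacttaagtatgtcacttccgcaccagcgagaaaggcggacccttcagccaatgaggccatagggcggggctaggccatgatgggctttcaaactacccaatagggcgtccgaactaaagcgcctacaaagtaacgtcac
Eif4e: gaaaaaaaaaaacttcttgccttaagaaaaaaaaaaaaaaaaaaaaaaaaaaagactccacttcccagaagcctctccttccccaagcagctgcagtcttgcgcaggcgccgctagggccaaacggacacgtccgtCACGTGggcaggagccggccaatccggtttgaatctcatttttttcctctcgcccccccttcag
Eif4b: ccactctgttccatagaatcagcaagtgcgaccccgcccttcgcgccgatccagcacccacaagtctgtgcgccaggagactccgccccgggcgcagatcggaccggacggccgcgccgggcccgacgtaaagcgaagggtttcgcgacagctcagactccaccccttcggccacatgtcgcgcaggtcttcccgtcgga
Eif3f: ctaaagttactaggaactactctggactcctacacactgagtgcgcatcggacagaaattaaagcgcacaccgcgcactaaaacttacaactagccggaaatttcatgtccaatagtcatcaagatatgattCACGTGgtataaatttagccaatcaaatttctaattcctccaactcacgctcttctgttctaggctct
Eef2: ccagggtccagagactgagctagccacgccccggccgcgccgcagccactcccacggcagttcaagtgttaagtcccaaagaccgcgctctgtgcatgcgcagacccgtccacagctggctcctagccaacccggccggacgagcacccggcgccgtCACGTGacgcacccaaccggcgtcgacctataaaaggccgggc

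The E-box was found both in genes that rose and in genes that fell or did not pass the test. CACGTG occurred in a window of 12 of the 41 factor genes, or 29.3%, against 10.2% of all 14452 measured genes with a window and 12.2% of those as bright as the median factor. By call it was in 3 of 7 genes that rose (Eif4a1 at -189, Eif4e at -64 and again at -228, Eif3a at 23 after the start), in 1 of 3 that fell (Eif3f at -68), and in 8 of 31 that were not called, Eef2 (-43) among them. Positions are those of the first base relative to the start. CCGGAAG occurred in 14 of the 41 genes (34.1%, against 15.0% of all genes and 19.0% of bright ones). It was in 1 of 7 that rose, Eif3d, in 0 of 3 that fell and in 13 of 31 not called. TGATGCAA occurred in 0 of the 41 genes, against 0.803% of all genes. ACANNNTGT occurred in 1, that of Eif5a, which is 2.44% against 6.10% of all genes. No matches of different motifs overlapped in the factor windows. These are matches of letters, and binding was not measured.

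In the ternary complex and its exchange factor, the changes that passed the test were increases. Eif2s1, for the α subunit of eIF2, was not among the members, so that subunit was not compared. Eif2s2 encodes eIF2β, which contacts both eIF5 and eIF2B. It read 2399, 2466 and 2715 after oil and 3211, 3891 and 4121 after P4. The groups were well apart, and Eif2s2 rose by 0.56 ± 0.10 log2 (2527 ± 167 to 3741 ± 473; limma adjusted p = 0.013), with the same sign in its 5 other probe sets. The call was lost without oil replicate 1 (adjusted p = 0.058), oil replicate 2 (0.063) or P4 replicate 2 (0.053). Eif2s3x, for the GTP-binding γ subunit, read 2521, 2506 and 2604 after oil and 2574, 2685 and 2787 after P4, a difference of 0.08 ± 0.07 log2 with overlap. Eif2s3y, its Y-linked copy, read 22.5 to 37.8 on all 6 arrays of this female tissue, which gives the background of that probe set.

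All 5 subunit genes of eIF2B had every P4 array above every oil array, as did 14.3% of all genes. Eif2b3 and Eif2b5, for the γ and ε subunits that form the catalytic part, passed the test, and the regulatory subunit genes Eif2b1, Eif2b2 and Eif2b4 did not. Eif2b3 read 249, 275 and 235 after oil and 335, 465 and 420 after P4. It rose by 0.64 ± 0.13 log2 (253 ± 20.1 to 407 ± 66.2; limma adjusted p = 0.016), a call lost without oil replicate 1 (adjusted p = 0.064), P4 replicate 2 (0.055) or P4 replicate 3 (0.051). The gene has 1 probe set. Eif2b5, in which variants cause vanishing white matter disease in humans, read 576, 564 and 567 after oil and 755, 675 and 713 after P4. The oil arrays were almost equal, and Eif2b5 rose by 0.32 ± 0.08 log2 (569 ± 6.24 to 714 ± 40.1; limma adjusted p = 0.033). This call was fragile: leaving out any 1 array ended it (adjusted p from 0.052 without P4 replicate 2 to 0.12 without oil replicate 2). Averaging its 2 probe sets also ended the call (limma adjusted p = 0.13), and the second of these read only 38.3 to 40.9 on all 6 arrays.

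Of the 3 regulatory subunits, Eif2b1 differed by 0.31 ± 0.10 log2 (325 ± 15.4 to 406 ± 40.0; limma adjusted p = 0.079, and 0.047 with the replicate block). Eif2b2 read 779, 785 and 735 after oil and 858, 860 and 969 after P4, a difference of 0.22 ± 0.08 log2 (adjusted p = 0.13). Eif2b4 differed by 0.20 ± 0.07 log2 (adjusted p = 0.13), from 700.1 ± 24.8 to 804 ± 26.5. The median of the 5 subunits was 0.31 log2. Scaled to the hybridisation controls, all 5 passed the test as higher, as did 1927 of all 18193 genes.

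Eif2a and Eif2d encode single-chain proteins that can bring tRNA to the ribosome outside the usual route. Eif2a is distinct from the α subunit of eIF2. It read 801, 864 and 842 after oil and 613, 665 and 722 after P4. Its groups did not overlap, and it fell by 0.32 on the log2 scale, with an SE of 0.09 (836 ± 31.9 to 667 ± 54.6; limma adjusted p = 0.047). Its adjusted p was the highest of the 12 calls. It was kept without P4 replicate 3 and lost without oil replicate 1 (adjusted p = 0.11), oil replicate 2 (0.17), oil replicate 3 (0.11), P4 replicate 1 (0.094) or P4 replicate 2 (0.12). It was also lost with median centring (0.075), scaling to the hybridisation controls (0.21), no trend in the moderation (0.056) and the mean of its 3 probe sets (0.54), 1 of which had the opposite sign. Eif2d differed by -0.18 ± 0.08 log2 (limma adjusted p = 0.21), with P4 arrays (400 to 434) below oil arrays (454 to 494).

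eIF1A helps the small subunit scan to the start codon. Eif1a, its autosomal gene in mouse, read 667, 648 and 768 after oil and 950, 995 and 1099 after P4. The lowest P4 array stood far above the highest oil array, and Eif1a rose by 0.54 ± 0.10 log2 (694 ± 64.5 to 1015 ± 76.4; limma adjusted p = 0.011). The call was lost without oil replicate 1 (adjusted p = 0.051) or oil replicate 2 (0.056). Eif1ax, the X-linked gene of the same factor, read 1812, 1567 and 1820 after oil and 2113, 1858 and 2159 after P4. Its difference was 0.24 ± 0.09 log2 (limma adjusted p = 0.15). The number 2 arrays were lowest in both groups, and with the replicate block the adjusted p of Eif1ax was 0.038. Eif1b, a relative of the start-codon gatekeeper eIF1, differed by 0.21 ± 0.08 log2 (adjusted p = 0.16), and its P4 arrays (1600 to 1737) also lay above its oil arrays (1323 to 1534).

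Within eIF3, the largest initiation factor, subunit genes moved in opposite directions. Of 11 measured subunits, Eif3a, Eif3b and Eif3d rose, Eif3f fell and 7 did not pass the test, with a median log2 difference of 0.05, which turned to -0.02 with quantile normalization. Subunits a and b belong to the core that budding yeast shares, and subunit d has a cap-binding activity of its own on some mRNAs. Subunits f, h and m lie together in a module that yeast lacks.

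Eif3a, for the largest subunit and scaffold of the complex, read 3822, 3833 and 3601 after oil and 4923, 4968 and 5073 after P4. Each group was tight and the gap between them was wide. Eif3a rose by 0.41 ± 0.06 log2 (3752 ± 131 to 4988 ± 77.3; limma adjusted p = 0.0057), a call kept without any 1 of the 6 arrays (adjusted p at most 0.030), with the same sign in its 3 other probe sets. Eif3b, for the subunit with an RNA recognition motif that anchors part of the core, read 894, 954 and 861 after oil and 1167, 1327 and 1123 after P4. It rose by 0.41 ± 0.09 log2 (903 ± 47.5 to 1206 ± 107; limma adjusted p = 0.023). The call rested on 1 probe set and was lost without oil replicate 1 (adjusted p = 0.086), oil replicate 2 (0.060), oil replicate 3 (0.069) or P4 replicate 2 (0.067). Eif3d read 1624, 1535 and 1566 after oil and 1953, 2128 and 2168 after P4. It rose by 0.40 ± 0.07 log2 (1575 ± 44.8 to 2083 ± 114; limma adjusted p = 0.011). That call was lost without oil replicate 2 (adjusted p = 0.059) and with the mean of its 2 probe sets (0.19), the second of which read 49.3 to 71.8 and had the opposite sign.

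Eif3f read 5735, 6155 and 6345 after oil and 4870, 5108 and 5033 after P4. All P4 arrays lay below all oil arrays, and Eif3f fell by 0.28 on the log2 scale, with an SE of 0.06 (6078 ± 312 to 5004 ± 122; limma adjusted p = 0.029). The call rested on 1 probe set. It was lost without any 1 array (adjusted p from 0.057 without oil replicate 1 to 0.12 without oil replicate 2), with no trend (0.061) and with scaling to the hybridisation controls (0.22). Eif3h, its partner in the module, read 4009, 4744 and 3908 after oil and 3051, 3468 and 3595 after P4. Its log2 difference was -0.32 ± 0.10 (limma adjusted p = 0.074, and 0.029 as lower with the replicate block). For Eif3m the difference was -0.14 ± 0.09 log2, for Eif3k -0.14 ± 0.07 and for Eif3e -0.11 ± 0.08, none past the test, and scaled to the hybridisation controls they were -0.02, -0.01 and 0.01. Eif3i, a core subunit, differed by 0.16 ± 0.07, Eif3l by 0.07 ± 0.07 and Eif3c, another core subunit, by 0.05 ± 0.09.

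Factors of the last steps of initiation gave mixed values, none past the test. Eif5, for the GTPase-activating protein of eIF2, read 2990, 3033 and 2966 after oil and 2808, 2831 and 2894 after P4. Its groups did not overlap, but the difference was small, -0.07 ± 0.06 log2, and 3 of its 4 other probe sets had the opposite sign. Eif5b, for the GTPase of subunit joining, differed by 0.16 ± 0.12 log2 (limma adjusted p = 0.49) on its brightest probe set. Its 2 other probe sets differed by 0.42 and 0.30, and with the mean of its 3 probe sets Eif5b passed the test as higher (adjusted p = 0.042). Eif6, for the factor that keeps the large subunit from joining too early, read 868, 905 and 929 after oil and 953, 1186 and 1254 after P4. The difference was 0.31 ± 0.11 log2 (limma adjusted p = 0.11, and 0.035 with the replicate block), and its second probe set had the opposite sign (-0.05).

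eIF5A carries hypusine, a modified lysine, and helps ribosomes through difficult peptide bonds. Eif5a read 4364, 4246 and 5414 after oil and 5396, 6921 and 7404 after P4. Oil replicate 3 and P4 replicate 1 were almost equal, which is the overlap between the groups. The difference was 0.49 ± 0.14 log2 (4675 ± 643 to 6574 ± 1048; limma adjusted p = 0.057), and it passed the test with the replicate block (adjusted p = 0.0070), without oil replicate 3 (0.037) and without P4 replicate 1 (0.016). Eif5a2, the second gene of the factor, read 196, 202 and 169 after oil and 280, 260 and 215 after P4. Its difference was 0.38 ± 0.12 log2 (limma adjusted p = 0.079, and 0.016 with the replicate block).

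No elongation factor gene passed the test, beside 13.0% of all genes, and their log2 differences ran from -0.15 to 0.01. Eef1a1, for the main tRNA carrier, read 18904, 18410 and 18976 after oil and 18036, 18922 and 18114 after P4. The groups overlapped, with a log2 difference of -0.03 ± 0.05 (95% interval -0.15 to 0.09). These intensities are near the top of the deposited range, and how the arrays respond there was not tested. Eef1a2, the form of muscle and nerve, read 63.3 to 92.9 after oil and 72.0 to 77.4 after P4. Eef1b2, for the nucleotide exchange subunit of eEF1B, read 9097, 8591 and 9263 after oil and 9043, 8961 and 9193 after P4, a difference of 0.01 ± 0.06 log2 (95% interval -0.12 to 0.15). Eef1d, for another exchange subunit, differed by -0.15 ± 0.10 log2 (-0.38 to 0.08), with oil arrays spread from 4731 to 6145.

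Eef2, for the translocase, read 9345, 9089 and 9776 after oil and 8552, 8828 and 8726 after P4. All P4 arrays were below all oil arrays, by a difference of -0.11 ± 0.06 log2 (95% interval -0.24 to 0.02; limma adjusted p = 0.27). Over the 5 elongation factors the 95% intervals stayed between -0.38 and 0.25 log2. Under scaling to the hybridisation controls the log2 differences of Eef1a1, Eef1a2 and Eef2 turned positive (0.09, 0.09 and 0.02), and none of the 5 passed the test. The groups overlapped for 5 of 5 modifying enzymes, as they did for 12413 of all 18193 genes. Eef2k, the kinase that inhibits eEF2, read 630, 628 and 588 after oil and 589, 606 and 607 after P4 (-0.03 ± 0.07 log2). The methyltransferase genes Eef1akmt1, Eef1akmt2, Eef1aknmt and Eef2kmt ran from -0.10 to 0.10 log2. Eif1ad read 889, 813 and 812 after oil and 905, 957 and 1028 after P4, a difference of 0.20 ± 0.08 log2 (limma adjusted p = 0.17). Its other probe set differed by 0.56, and with their mean Eif1ad passed the test as higher (adjusted p = 0.034).

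To compare related factors on the same arrays, the log2 ratio within each of 8 pairs was taken per array. The Eif4a1 to Eif4a2 ratio was higher on all 3 P4 arrays than on any oil array, by 0.77 ± 0.18 log2 (pooled SD, n = 3). The Eif4b to Eif4h ratio differed by -0.49 ± 0.09, again without overlap. Eif1a against Eif1ax (0.30 ± 0.12) and Eif4e against Eif4e2 (0.58 ± 0.17) were also free of overlap. Each of these 4 pairs gave p = 0.1 by a two-sided exact permutation test, the least these groups can reach, and 0.16 after adjustment over the 8 pairs, so none could pass a threshold of 0.05. Eif4e against Eif4e3 (0.71 ± 0.63, exact p = 0.3), Eif5a against Eif5a2 (0.11 ± 0.37, exact p = 0.8) and Eef1a1 against Eef1a2 (0.01 ± 0.15, exact p = 0.9) overlapped. With single arrays left out the first ran from 0.38 (without oil replicate 2) to 1.11 (without oil replicate 3), the second from -0.09 (without P4 replicate 3) to 0.32 (without P4 replicate 1) and the third from -0.10 (without oil replicate 1) to 0.11 (without oil replicate 2). The pair of Eif4a1 and Eif4a3 is not read, because the dim Eif4a3 probe set makes its ratio follow Eif4a1. With the mean of all probe sets the Eif4e to Eif4e2 difference was 0.30.

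**Figure D3:**
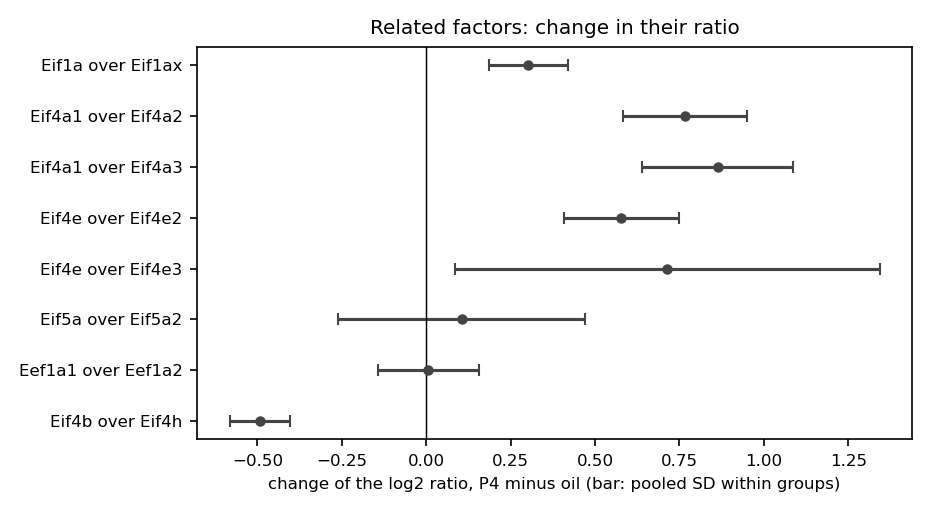
Change of the log2 ratio within 8 pairs of related factor genes, P4 minus oil; points are differences between group means of 3 arrays, bars the pooled SD within groups, and the vertical line marks 0. The ratio of Eif4a1 to Eif4a2 lies at 0.77 and that of Eif4b to Eif4h at -0.49, both without overlap between groups. The groups overlap for Eif4e to Eif4e3, Eif5a to Eif5a2 and Eef1a1 to Eef1a2. The bars show the spread of arrays and are not intervals for the difference. The pair with the dim Eif4a3 follows Eif4a1.

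Genes that act on or beside these factors were read from 7 lists. Over all genes, 6.08% were called higher and 6.94% lower. Termination, recycling and rescue stood highest in median: 5 of 12 measured genes rose and 0 fell, with a median log2 difference of 0.29. They included Abce1, the ribosome recycling ATPase (0.73 ± 0.12; 1464 ± 139 to 2454 ± 340), Etf1 and Gspt1, the release factors eRF1 and eRF3 (0.63 ± 0.13 and 0.62 ± 0.15), and Abcf2 (0.50 ± 0.10). Of these, Abce1 kept its call without any 1 array. Etf1 lost it without oil replicate 1 (adjusted p = 0.063), oil replicate 2 (0.059) or P4 replicate 3 (0.055), and Abcf2 without oil replicate 1 (0.068), P4 replicate 2 (0.062) or P4 replicate 3 (0.051). With the mean of its probe sets Abcf2 differed by 0.24 and was not called (0.075). Gspt1 lost it without P4 replicate 2 (0.12), P4 replicate 3 (0.095) or any 1 oil array (0.11, 0.13 and 0.052 without replicates 1, 2 and 3).

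On the list of eIF2α kinases and phosphatase, 2 of 9 rose and 0 fell (median 0.09). Dnajc3, for the chaperone p58IPK known to restrain eIF2α kinases, read 1371, 1275 and 1352 after oil and 2533, 2441 and 2336 after P4, and rose by 0.86 ± 0.07 log2 (limma adjusted p = 0.00067). Ppp1r15b, the constitutive partner of the eIF2α phosphatase, rose by 0.42 ± 0.08 (913 ± 39.7 to 1231 ± 56.4), a call lost without oil replicate 2 (adjusted p = 0.057). The 4 eIF2α kinase genes were not among the calls. On the list of elongation accessory and modifying enzymes, 3 of 12 rose and 0 fell (median 0.11). Eef1e1, which despite its name encodes a scaffold of the aminoacyl-tRNA synthetase complex, read 661, 620 and 729 after oil and 1295, 1320 and 1495 after P4. It rose by 1.02 ± 0.09 log2 (limma adjusted p = 0.00098). Dph1 and Dph2, for enzymes of the first step of diphthamide synthesis on eEF2, rose by 0.47 ± 0.10 and 0.49 ± 0.10. Dph2 lost its call without oil replicate 1 (adjusted p = 0.052), oil replicate 2 (0.071) or P4 replicate 2 (0.058). Dph1 lost it without any 1 oil array (0.077, 0.053 and 0.068 without replicates 1, 2 and 3), P4 replicate 1 (0.056) or P4 replicate 2 (0.052).

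The cap and poly(A) regulators were split, with 4 of 15 higher and 2 lower (median -0.04). Larp4, a poly(A)-binding protein partner, rose by 0.71 ± 0.08 log2 (637 ± 44.0 to 1050.2 ± 49.7), Ddx3x, an RNA helicase that aids initiation, by 0.42 ± 0.07 (4576 ± 320 to 6109 ± 112), and Larp1, which binds mRNAs of ribosomal proteins, by 0.41 ± 0.08. Paip2, an inhibitor of poly(A)-binding protein, fell by 0.58 on the log2 scale, with an SE of 0.08 (3683 ± 264 to 2460.2 ± 131). Larp1 lost its call without oil replicate 1 (adjusted p = 0.056), oil replicate 2 (0.069) or P4 replicate 2 (0.054). In the mTORC1 pathway, which controls eIF4E through its binding proteins, 0 of 10 rose and 2 fell (median -0.08): Deptor, an mTOR inhibitor, by 0.94 with an SE of 0.15 (1368 ± 199 to 709 ± 134), and Tsc1, for a subunit of the complex that restrains Rheb, by 0.46 with an SE of 0.10. Tsc1 lost its call without P4 replicate 2 (adjusted p = 0.071), P4 replicate 3 (0.057), oil replicate 1 (0.086) or oil replicate 2 (0.077), and with scaling to the hybridisation controls (0.070). With the mean of its probe sets it differed by -0.21 and was not called (0.12).

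Of 83 listed genes of cytosolic ribosomal proteins, 46 were measured. Of the 46, 2 rose and 0 fell, with a median of -0.01 log2, beside 6.08% of all genes higher and 6.94% lower. Many of the 46, such as Rps29 (19538 ± 264 after oil), read near the top of the deposited range, where the response of the arrays was not tested. Rpl12 rose by 0.72 ± 0.15 log2 (419 ± 72.5 to 697 ± 103) and Rps27l by 0.44 ± 0.09. Rpl12 lost its call without oil replicate 2 (adjusted p = 0.079), oil replicate 3 (0.052) or P4 replicate 2 (0.063), and Rps27l without P4 replicate 2 (0.062), oil replicate 1 (0.082) or oil replicate 2 (0.083). Of 9 mitochondrial translation factors 1 rose and 0 fell (median 0.01). That was Gfm1, the mitochondrial counterpart of eEF2, by 0.43 ± 0.11, a call lost without oil replicate 1 (adjusted p = 0.15), oil replicate 2 (0.15), P4 replicate 2 (0.13) or P4 replicate 3 (0.11), and when probe sets that may cross-hybridise were excluded (0.32 log2, adjusted p = 0.081).

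**Figure D4:**
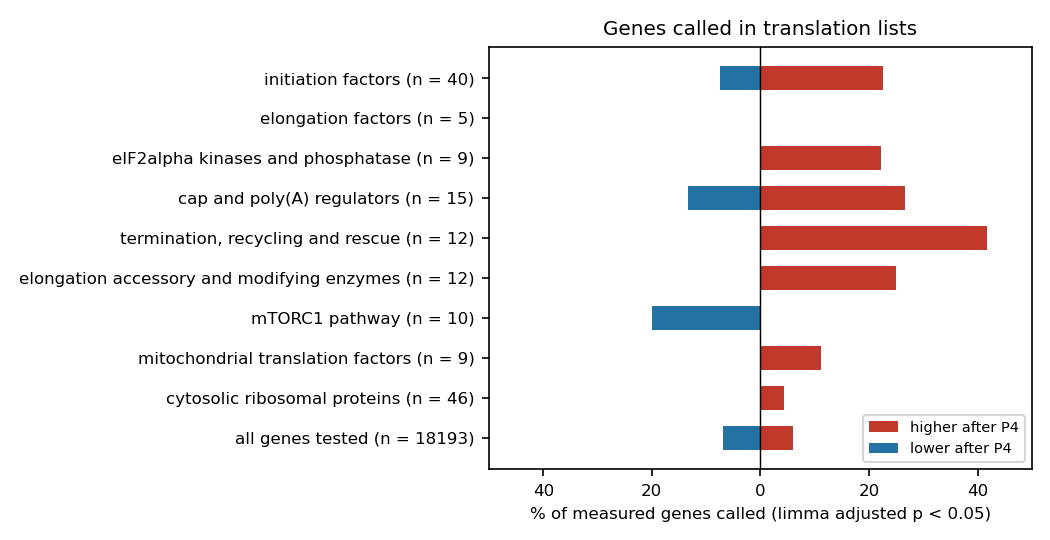
Percent of measured genes in each list that passed the limma test at an adjusted p under 0.05, higher after P4 to the right and lower to the left, with the number measured in brackets. Termination, recycling and rescue has 5 of 12 genes higher, the mTORC1 pathway 2 of 10 lower and the elongation factors 0 of 5 in either direction, beside 6.08% higher and 6.94% lower over all genes.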

How the data were processed

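The authors deposited a linear intensity for each probe set and array, measured with biotin-labelled cRNA per the labels. How it was summarised and scaled was not given in the sources used here. Of 45101 probe sets, 64 controls, 932 with several gene symbols and 9160 unnamed here did not enter the gene tests. A gene was represented by its brightest probe set, by mean log2 over the 6 arrays, and 16 was added before taking log2. Array medians differed by 0.059 log2, so no normalization was applied. P4 was compared with oil in limma 3.58.1 (R 4.3.3; lmFit, eBayes with trend), with Benjamini-Hochberg adjustment over 18193 genes and a threshold of 0.05. SE is that of the fit, SD that of 3 arrays, and the number of arrays limits the precision.

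Members and gene lists were chosen with earlier results of these data known. The text gives every array for called factors and for the brightest factor of each complex, up to 4 called genes of each related list, Eif2s3y as a gauge of background in female tissue and Pgr. Gene names come from the platform annotation; 34741 of 34945 probe sets with 1 symbol matched a RefSeq gene table of GRCm38.p6, which also gave the promoters. Same-numbered arrays deviated together from their group means (r of 0.53, 0.13 and 0.64 for numbers 1, 2 and 3), and the number was treated as a pairing. It comes from the data, and r was higher (0.29) between oil replicate 2 and P4 replicate 1. Alternatives covered scaling, filters, pseudocounts of 1 and 50, choice of probe set, moderation, array weights, thresholds, the replicate block and arrays left out. Ratios of related factors were compared by an exact permutation test. Figures were drawn with matplotlib 3.10.9.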

Additional observations from a re-analysis of the deposited data

Results flagged for a closer look

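Probe sets annotated to several genes were kept out of the comparison, and 7 of them name a translation factor. Fitted with all 45037 probe sets, 4 of the 7 passed the limma test as higher after P4, with every P4 array above every oil array. The 3 probe sets shared by Eif3j1 and Eif3j2, copies of the gene for the loosely bound eIF3 subunit j, differed by 0.44 (386 ± 10.4 to 531 ± 62.7; adjusted p = 0.036), 0.53 (179 ± 4.92 to 265 ± 28.6; 0.016) and 0.45 log2 (960 ± 6.06 to 1324 ± 176; 0.036). The copies cannot be told apart on these probe sets. A probe set shared by Eif1a, Gm4027 and BB287469 differed by -0.05 log2 (96.2 ± 5.51 to 92.4 ± 5.45, limma adjusted p = 0.83). It did not follow the increase of the probe set annotated to Eif1a alone. A probe set shared by Eif4a3 and Gm5576 read 2114, 2173 and 2415 after oil and 2936, 2954 and 2870 after P4, a difference of 0.39 log2 (adjusted p = 0.017), while the probe set annotated to Eif4a3 alone was dim and gave -0.15. A bright probe set shared by Eef1g, for a subunit of eEF1B, and Gm29753 differed by 0.02 log2 (7826 ± 301 to 7925 ± 363; adjusted p = 0.92).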

How the results depend on the processing

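All 12 called factors kept their sign under the 25 alternatives, but only those that changed the scaling or the choice of probe set could have turned it. The groups of these 12 did not overlap, so leaving arrays out could not turn a sign, and the other settings kept its direction fixed. After scaling to the hybridisation controls, 10 of the 12 were also called. Of all genes, 881 were called at an adjusted p under 0.01, 3801 with the replicate block, 3948 with the block and hybridisation scaling, and 171 to 2302 with arrays left out. Factors called higher numbered 2 at an adjusted p under 0.01, 18 with hybridisation scaling, 14 with the replicate block, 21 with both, and 0 to 11 with arrays left out. Factors called lower numbered 0 at 0.01, 5 at 0.1, 1 with hybridisation scaling, 1 without trend, 5 with the replicate block, 1 with both, and 0 to 2 with arrays left out. The counts of 0 factors and 171 genes came without both arrays numbered 2, where the 12 had limma adjusted p from 0.052 to 0.32 and unadjusted p up to 0.058. With as many arrays left, 1054 genes were called without both numbered 1, and 1434 without both numbered 3. Of the factors, 5 were called higher and 0 lower without number 1, and 5 higher and 1 lower without number 3. The block treats same-numbered arrays as paired, which the labels do not state, and it changed no other factor's call than those named. Of the 12, Eif3a and Eif4a1 alone kept their call without any 1 array. With hybridisation scaling, complex medians were 0.36 (eIF1 and eIF1A), 0.20 (eIF2), 0.43 (eIF2B), -0.12 (eIF2A and eIF2D), 0.18 (eIF3), 0.41 (eIF4G), 0.071 (eIF4A, eIF4B and eIF4H), 0.17 (eIF5 and eIF5B), 0.56 (eIF5A), 0.092 (eEF1A), 0.058 (eEF1B), 0.015 (eEF2), 0.094 (modifying enzymes) and 0.32 (Eif1ad). On the deposited scale those of eIF4A, eIF4B and eIF4H, eEF1A, eEF1B, eEF2 and the modifying enzymes were negative. With quantile normalization eIF4A, eIF4B and eIF4H gave -0.15, eEF1B -0.13 and eIF3 -0.02, where eIF3 was 0.05 on the deposited scale. With the mean of all probe sets the Eif4e to Eif4e2 difference was 0.30. Hybridisation scaling shifts each array by a constant, so it added the same 0.13 log2 to the difference of every gene and complex. The causes of the other shifts were not tested, and fits with arrays left out also had fewer arrays.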
